A study of Mus musculus with 16 samples.

Results

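Livers of refed and fasted male mice on the control diet were compared across all expressed genes, using 8 of the 16 libraries of a study of dietary isoleucine. The 8 libraries were chosen by their labels alone: 4 livers taken after an overnight fast of 16 h and 4 livers taken after refeeding. All mice were 13 weeks old, had started the control diet at 10 weeks of age, ate it for 3 weeks and were housed at about 22 °C. The other 8 libraries, 4 fasted and 4 refed, came from mice on a low isoleucine diet, and are used only where the response to refeeding is set beside the same response on that diet. The labels used here give neither the strain nor the length of refeeding. The 4 fasted control libraries share the label number 1 and the 4 refed control libraries the label number 7, so this number and the feeding state cannot be told apart. Within each state the libraries are numbered 1 to 4 for the label marks RL, R, L and N.

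After a meal, insulin and glucose switch the liver from releasing glucose and burning fatty acids to storing glucose and making lipid. The transcription factors SREBP1C, SREBP2 and ChREBP drive genes of lipid synthesis and glycolysis, whereas FOXO1, CREB, the glucocorticoid receptor and PPARA drive genes of glucose production, amino acid breakdown and fatty acid oxidation during fasting. Feeding also raises the making of secreted proteins, which are folded in the endoplasmic reticulum (ER), and the growth programme controlled by mTORC1.

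Levels below are in CPM (counts scaled to a common library size) after correction for library composition, and differences are log2 fold changes, refed minus fasted, with a standard error (SE). A gene is said to have risen or fallen where its p-value in edgeR's quasi-likelihood test, adjusted over all tested genes by the Benjamini-Hochberg method, was under 0.05. Total counts ran from 28538541 to 32751692 in the fasted and from 24368656 to 33432158 in the refed libraries. The summed level of 12 hepatocyte markers was 89830 to 126000 CPM in fasted and 102900 to 112100 CPM in refed livers. The pancreatic genes Ins2, Pnlip, Cpa1 and Prss1 were at 0 in the 8 libraries. On the second principal component refed library 4 was far from the rest of its group, at −50 against −7 to 29.3. Its summed levels of Kupffer cell and macrophage markers (547 CPM, against at most 387.4 CPM in refed libraries 1 to 3), endothelial markers (427 against 264.4 CPM), stellate cell and fibroblast markers (743.1 against 380.5 CPM), lymphocyte markers (32.87 against 10.74 CPM) and neutrophil markers (7.219 against 3.796 CPM) were the highest of the refed group. The other refed libraries stood apart from the fasted ones for endothelial and stellate cell markers. Libraries 1 to 3 had 184.7 to 264.4 CPM of endothelial markers against 276 to 401.7 CPM in fasted livers. Their stellate cell and fibroblast markers were at 323.4 to 380.5 CPM against 436.3 to 595.2 CPM. Kupffer cell markers overlapped, at 283.6 to 387.4 CPM against 384.8 to 498.5 CPM. Cholangiocyte, erythroid, lymphocyte and neutrophil marker sums of these libraries also overlapped with the fasted ones. With all 4 refed libraries none of the 13 endothelial markers passed (median −0.31), whereas without library 4 the fall passed in 4 (median −0.65), and in 3 of the 13 stellate cell markers. No marker of the 13 in the Kupffer, endothelial or stellate lists was at 0, and the part these cells have in the results was not tested. In such bulk samples, fewer cells of a type and less RNA per cell cannot be told apart.

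Of 14920 genes tested, 2552 (17.1%) differed between refed and fasted livers. In refed livers 1329 genes (8.91%) were higher and 1223 (8.2%) lower, and the median log2 fold change over all tested genes was 0.01. The list counts below are to be read beside these shares, and a count near them is no result about its list. At least 2-fold differences were seen in 293 higher and 377 lower genes, and at least 4-fold differences in 56 higher and 69 lower genes. In 2123 of the 2552 genes, the 4 values of one state lay entirely above the 4 values of the other, while the 2 states overlapped in 429. Without refed library 4 the test called 2743 genes. Each library was also left out in turn, and where a described gene then lost its call, the library whose removal gave the highest adjusted p is named beside it. Most such genes lost their call in more than 1 of these 8 fits. When libraries were scaled by their totals alone, 71.7% of the called genes were higher rather than 52.1%, and the median over all genes rose to 0.135. The plot of fold change against mean level shows that genes of low, middle and high level changed in both directions.

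**Figure D1:**
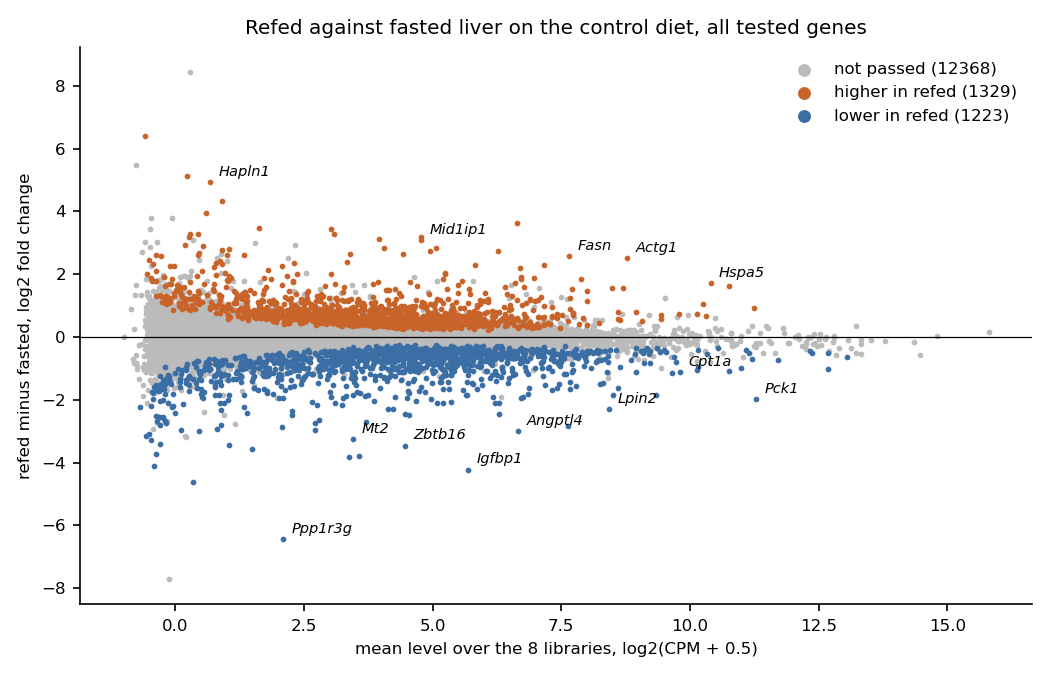
Log2 fold change, refed minus fasted (vertical axis), against the mean level over the 8 control-diet libraries, log2(CPM + 0.5), for the 14920 tested genes. Orange points mark the 1329 genes higher in refed livers, blue points the 1223 lower genes and grey points genes that did not pass.

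Genes of insulin signalling moved in both directions. Irs2, an adaptor of the insulin receptor, was at 18.7, 19.2, 34.6 and 18.6 CPM in fasted and 3.66, 5.71, 3.51 and 8.93 CPM in refed livers. The states did not overlap and Irs2 fell (log2 fold change −2.04, SE 0.343, adjusted p = 0.000857). The insulin receptor gene Insr also fell, from 141 to 152 CPM in fasted livers to 66.8 to 86.1 CPM in refed livers (−0.95, SE 0.111, adjusted p = 3.87e-05). Pik3r1, the regulatory subunit of PI3-kinase, rose by 0.83 on the log2 scale, and the forkhead factors Foxo1 and Foxo3 fell by 0.70 and 0.90. Of 23 insulin signalling and glucose sensing genes, 4 rose and 5 fell, and their median log2 fold change was 0.01.

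Glycolysis moved at a few steps. Of 26 genes for glycolysis and fructose breakdown, 5 rose and 1 fell, while 20 did not pass (median 0.14). Pklr, the liver pyruvate kinase, had 51.2, 53.4, 47.1 and 40.4 CPM in fasted livers and 332, 295, 268 and 50.4 CPM in refed livers. Refed libraries 1 to 3 were far above every fasted library, while library 4 lay within the fasted range. Pklr rose by 2.30 (SE 0.409, adjusted p = 0.00148), and by 2.63 without library 4. Tkfc, a kinase of fructose metabolism, rose by 1.53 with no overlap between the states.

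Lipogenesis genes moved in both directions: of 23 genes of lipogenesis and NADPH supply 9 rose, 3 fell and 11 did not pass (median 0.31). Fasn, the fatty acid synthase, had 46.7, 85.6, 44.8 and 53.1 CPM in fasted livers and 545, 348, 420 and 62.2 CPM in refed livers. Refed library 4 lay inside the fasted range and the other refed libraries far above it. Fasn rose by 2.58 (SE 0.470, adjusted p = 0.00185). Srebf1, which encodes SREBP1, had 16.7, 34.4, 14.3 and 18.4 CPM in fasted and 112, 82.0, 66.2 and 31.7 CPM in refed livers. The lowest refed value was below the highest fasted value, and the rise was 1.8 (SE 0.366, adjusted p = 0.00372). Acly, which makes cytosolic acetyl-CoA, was 73.7 to 97.7 CPM in fasted and 148 to 244 CPM in refed livers, with no overlap (1.28, SE 0.159, adjusted p = 6.58e-05).

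Mid1ip1, an activator of acetyl-CoA carboxylase, had 6.50, 5.6, 3.66 and 6.93 CPM in fasted and 76.3, 50.6, 56.7 and 9.65 CPM in refed livers. Every refed value was above every fasted value, and the rise was 3.09 (SE 0.483, adjusted p = 0.000628). Pnpla3, a lipid droplet lipase and known SREBP1 target, rose by 2.81 from fasted levels under 1 CPM. Aacs, which activates acetoacetate for lipid synthesis, rose by 2.84 and the pentose phosphate enzyme gene Pgd by 0.54. Acaca, the cytosolic acetyl-CoA carboxylase, missed the threshold at 0.58 (adjusted p = 0.0536, 0.0263 without refed library 4 and 0.157 without fasted library 4). Scd1, the main liver desaturase, had 1493, 5935, 4779 and 2790 CPM in fasted and 2165, 5272, 2537 and 573 CPM in refed livers. Its spread within each state was wider than the difference between them (−0.51, SE 0.543, adjusted p = 0.604). Elovl5, an elongase of polyunsaturated fatty acids, fell by 0.84 and H6pd, the ER hexose phosphate dehydrogenase, by 0.73. Without refed library 4, 11 members of the list rose and 2 fell, with a median of 0.52, and 6 rose with the 8 control libraries alone. The fall of Acacb (−1.03, adjusted p = 0.0378) was lost at an adjusted p of 0.0741 without that library and of 0.123 without fasted library 4. The rise of Thrsp (2.74, adjusted p = 0.0171) was lost at 0.0553 without refed library 2, and that of Elovl6 (1.00, adjusted p = 0.0201) at 0.0776 without refed library 3. Acacb passed in 2, Thrsp in 5 and Elovl6 in 3 of the 8 fits without 1 library.

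**Figure D2:**
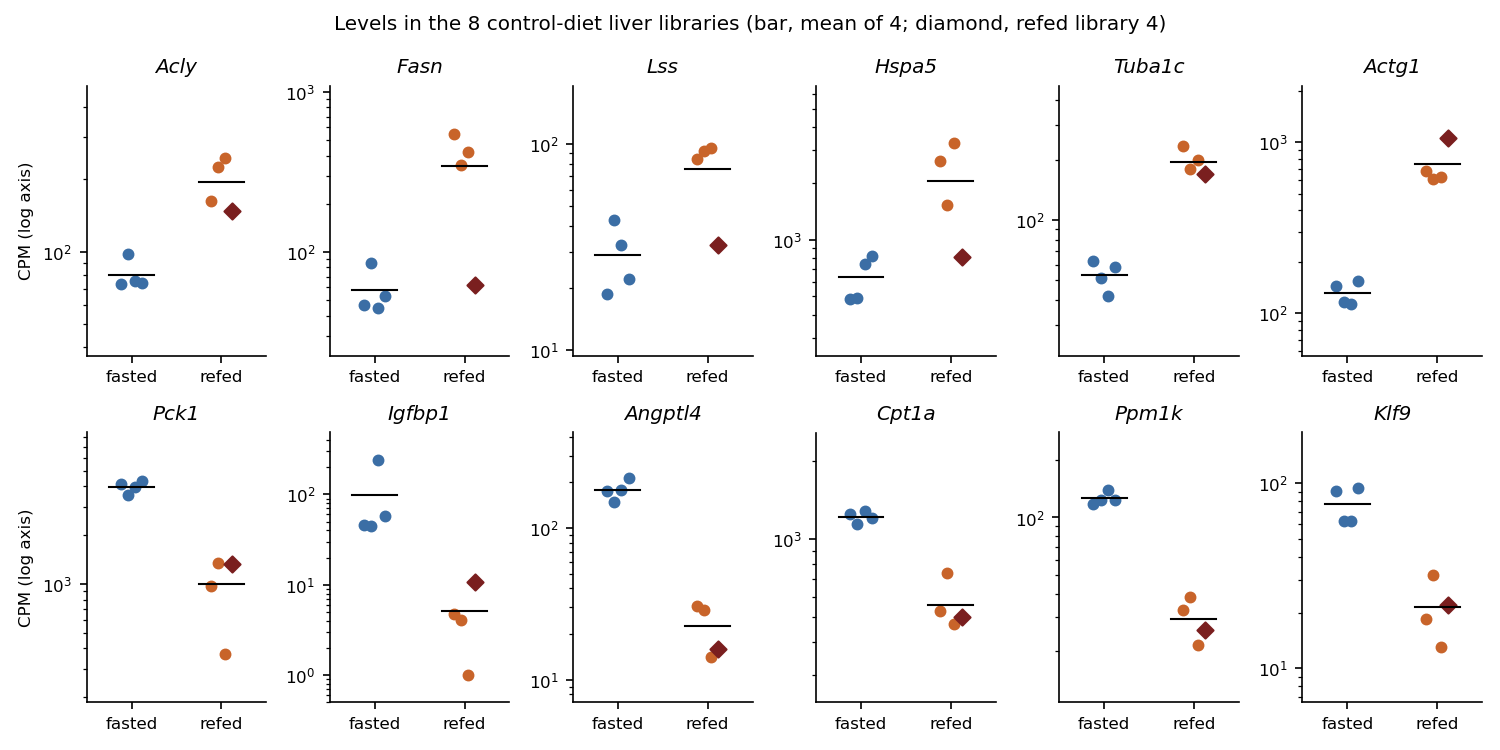
Levels in CPM (log axis) of 12 genes in the 4 fasted (blue) and 4 refed (orange, with library 4 as a dark diamond) control-diet livers, with a bar at each mean. Refed library 4 lies beside the fasted livers for Fasn, Lss and Hspa5, and with the other refed livers for Acly, Tuba1c, Actg1, Pck1, Angptl4, Cpt1a, Ppm1k and Klf9.

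Cholesterol synthesis genes were higher in refed libraries 1 to 3 and near fasted levels in library 4. Of 26 genes for cholesterol synthesis and other SREBP2 targets, 23 had a positive fold change and 7 rose, none fell, and the median was 0.94. Without refed library 4, 18 rose and the median was 1.19, and 4 rose without fasted library 1 or 4 or refed library 2 or 3. The count also moved with the method: 14 rose by DESeq2 or when libraries were scaled by their totals, and 3 when the 8 control libraries were fitted alone. Lss, which closes the sterol rings, had 18.8, 42.9, 32.4 and 22.1 CPM in fasted and 84.2, 91.7, 95.1 and 32.3 CPM in refed livers. Refed library 4 lay within the fasted range and the other refed libraries above it (rise 1.38, SE 0.328, adjusted p = 0.0094). Mvd, of the same pathway, rose by 2.65. The squalene epoxidase gene Sqle had a positive difference of 1.77 that missed the threshold (adjusted p = 0.0614, 0.0339 without refed library 4 and 0.152 without fasted library 4). Insig1, which retains SREBP in the ER, differed by 1.2 (adjusted p = 0.0541) and passed without refed library 4 (adjusted p = 0.00561, against 0.182 without refed library 3). Calls for Fdps (adjusted p = 0.0413) and Dhcr7 (adjusted p = 0.0232) were lost without fasted library 4 (0.108) and fasted library 1 (0.0751). Acat2 (adjusted p = 0.0276) was likewise lost without fasted library 1 (0.0903). Fdps passed in 2, Dhcr7 in 4 and Acat2 in 2 of the 8 fits without 1 library.

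Several genes of glucose production fell. Of 24 gluconeogenesis genes, 10 fell, none rose and the median was −0.48 (6 fell with scaling by library totals). Pck1, which encodes the phosphoenolpyruvate carboxykinase that commits carbon to glucose, had 4150, 3541, 3939 and 4290 CPM in fasted and 968, 1353, 372 and 1319 CPM in refed livers. The states were far apart, and refed library 3 was the lowest. Pck1 fell by 1.99 (SE 0.358, adjusted p = 0.00146). Ppargc1a, a coactivator of the fasting programme, had 14.1, 11.4, 15 and 28.3 CPM in fasted and 3.62, 5.04, 3.51 and 7.91 CPM in refed livers (−1.76, SE 0.324, adjusted p = 0.00156). Its relative Ppargc1b fell by 1.85, the aminotransferase gene Got1 by 1.62 and the transcription factor gene Cebpb by 1.25. G6pc, the glucose-6-phosphatase gene, had 480, 264, 765 and 412 CPM in fasted and 259, 320, 71.3 and 126 CPM in refed livers. The states overlapped, and the difference of −1.30 missed the threshold (SE 0.438, adjusted p = 0.0536), although it passed without fasted library 2 (0.0409) or refed library 2 (0.0271). Without fasted library 3 its adjusted p was 0.171.

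Targets that insulin represses through FOXO1 had the lowest median of the gene lists, −0.94, with 11 of 23 lower and 2 higher. Igfbp1, a secreted binding protein of insulin-like growth factors, had 46.2, 44.6, 242 and 57.5 CPM in fasted and 4.71, 4.03, 0.998 and 10.7 CPM in refed livers. All refed values were below all fasted values, and fasted library 3 was the highest. It fell by 4.22 (SE 0.998, adjusted p = 0.0103). Txnip, a redox protein that limits glucose uptake, fell by 1.52. Against the others, Angptl8, a secreted inhibitor of lipoprotein lipase that is made after feeding, rose by 3.19 (SE 0.774, adjusted p = 0.012), from 0.622 to 11 CPM to 17.6 to 105 CPM. Gadd45a, a stress-response gene, also rose (2.14, adjusted p = 0.0193), and missed the threshold without fasted library 3 (adjusted p = 0.058).

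The upstream windows of Igfbp1 and Pck1 are shown because both are textbook genes repressed by insulin and both fell; they were chosen after their values were seen. Both are the 250 bases before the start of the gene in RefSeq, build GRCm38.p6, 5′ to 3′ on the gene's strand. In Igfbp1 (chr11:7197537-7197786, plus strand) capitals mark AAAACAA, a core of the insulin response element, at 107 to 101 bases before the start. In Pck1 (chr2:173152823-173153072, plus strand) capitals mark the reverse complement of TGACGT, a core of the cAMP response element, at 91 to 86 bases before the start. AAAACAA was not found in the Pck1 window, and the forkhead site GTAAACA, also searched, was found in neither window. Searched on both strands, AAAACAA was in 5.61% and TGACGT in 9.81% of the windows of all tested genes, and a match is a description of the sequence only. In the 19 windows found for the FOXO1 list these shares were 10.5% and 26.3%.
Igfbp1: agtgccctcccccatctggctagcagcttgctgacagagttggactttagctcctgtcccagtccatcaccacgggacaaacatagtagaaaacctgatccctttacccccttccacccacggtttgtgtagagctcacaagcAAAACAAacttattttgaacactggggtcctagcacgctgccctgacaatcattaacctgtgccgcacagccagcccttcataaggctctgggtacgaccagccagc
Pck1: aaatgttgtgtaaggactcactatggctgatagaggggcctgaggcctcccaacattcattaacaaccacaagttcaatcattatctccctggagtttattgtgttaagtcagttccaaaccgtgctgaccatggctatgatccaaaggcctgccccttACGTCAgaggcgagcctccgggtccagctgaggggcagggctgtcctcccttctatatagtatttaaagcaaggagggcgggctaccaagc

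Glycogen genes changed in their phosphatase targeting subunits. Ppp1r3b, the subunit that brings protein phosphatase 1 to glycogen and activates its synthesis, had 150, 119, 114 and 158 CPM in fasted and 471, 363, 475 and 184 CPM in refed livers. The states did not overlap, with refed library 4 the lowest of its group (1.47, SE 0.23, adjusted p = 0.000407). A paralog, Ppp1r3g, went the other way, from 2.70, 0.580, 17.0 and 9.49 CPM to 0.0804, 0, 0.0399 and 0.174 CPM. Every refed library was under every fasted library (−6.45, SE 1.07, adjusted p = 0.000931), and the refed levels rest on few reads. The synthase gene Gys2 did not pass (−0.44, adjusted p = 0.121). Of 20 glycogen genes, 5 rose, 1 fell and the median was 0.01; 2 rose without fasted library 4, refed library 1 or refed library 3, and 3 without fasted library 1 or 3. Ppp1r3c was among them (1.09, adjusted p = 0.028) and lost its call without fasted library 3 (adjusted p = 0.0822) or refed library 4 (0.0664). It passed in only 2 of the 8 fits without 1 library.

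Some fatty acid oxidation genes fell in both mitochondria and peroxisomes. Of 27 mitochondrial oxidation and ketogenesis genes, 10 fell, none rose and the median was −0.26. Cpt1a, which admits long-chain fatty acids to the mitochondrion, had 1245, 1145, 1283 and 1199 CPM in fasted and 526, 740, 470 and 502 CPM in refed livers. The states were separate (−1.12, SE 0.145, adjusted p = 9.18e-05). The carnitine transporter gene Slc22a5 fell by 1.54, the coenzyme A carrier gene Slc25a42 by 1.29, Acsl1, which activates fatty acids, by 1.07, and the change of Pdk4, the kinase that turns off pyruvate dehydrogenase, was −1.90. Of 25 peroxisomal and omega oxidation genes, 12 fell, none rose and the median was −0.52; without fasted library 1, 7 fell, and 6 with the 8 control libraries alone. Crat, the carnitine acetyltransferase gene, fell by 0.97.

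PPARA itself and many genes known to be induced by fasting fell too: of 22 such genes 11 fell, none rose and the median was −0.71. Without refed library 3, or with scaling by library totals, 7 fell. Angptl4, a secreted inhibitor of lipoprotein lipase, had 176, 148, 179 and 214 CPM in fasted and 30.8, 29.0, 14.2 and 16.0 CPM in refed livers. It was lower in every refed liver and the states were far apart (−3.00, SE 0.28, adjusted p = 5.91e-06). Ppara had 168, 131, 97.9 and 110 CPM in fasted and 46.5, 65.4, 51.8 and 40.4 CPM in refed livers, again with no overlap (−1.31, SE 0.205, adjusted p = 0.000386). Mfsd2a, a lysophospholipid transporter, fell by 1.96. Fgf21, the fasting hormone gene, differed by 0.17 (SE 0.79, adjusted p = 0.927), with 3.86 to 7.87 CPM in fasted and 2.24 to 14.0 CPM in refed livers.

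Some genes of triglyceride synthesis and lipid droplets fell, with 9 of 25 lower, 1 higher and a median of −0.59. Without refed library 3, 6 fell. Lpin2, a phosphatidate phosphatase, had 596, 477, 542 and 666 CPM in fasted and 114, 192, 72.8 and 85.5 CPM in refed livers (−2.30, SE 0.274, adjusted p = 5.39e-05), and the states did not overlap. Gpat4, the ER acyltransferase gene, fell by 1.10, and changes were −1.10 for the droplet coat gene Plin2 and −1.08 for the triglyceride lipase gene Pnpla2. Lpin1 fell by 1.90 (adjusted p = 0.0184) and missed the threshold without fasted library 4 (adjusted p = 0.0626).

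The plot of gene lists by fold change shows the members behind these counts, from the tubulins at the top to FOXO1 targets at the bottom. The tubulins are among the 8 lists that were written after the fold changes were seen.

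**Figure D3:**
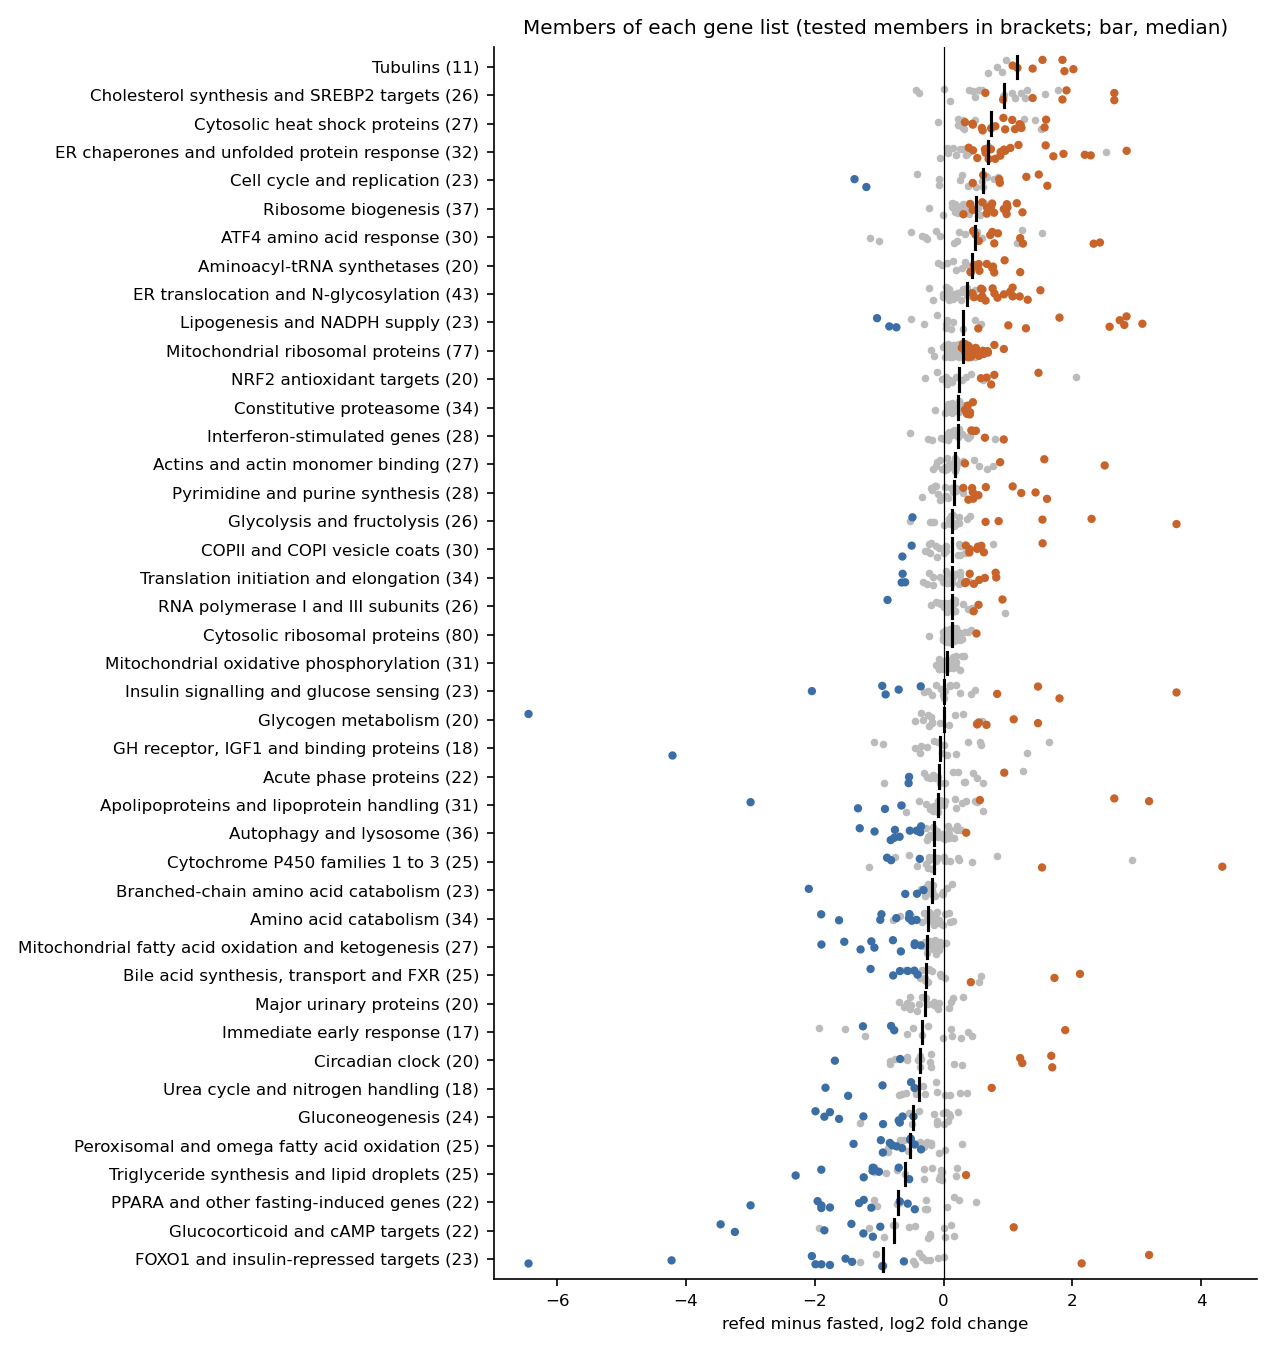
Log2 fold change, refed minus fasted, of each tested member (points) of 43 gene lists, with black bars at the medians and the number of members in brackets. Orange and blue members rose or fell, grey members did not pass, and the lists run from a median of −0.94 for FOXO1 targets to 1.15 for the tubulins. The tubulin list was written after the fold changes were seen.

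Amino acid breakdown genes fell or stayed under the threshold. Of 34 such genes 9 fell and none rose (median −0.24). Without fasted library 3, refed library 1 or refed library 3, with scaling by library totals or with the 8 control libraries alone, 5 fell. Sds, the serine dehydratase gene, had 87.8, 103, 83.4 and 181 CPM in fasted and 22.3, 39.4, 17.1 and 42.7 CPM in refed livers (−1.90, SE 0.369, adjusted p = 0.00274). Tdo2, which opens the tryptophan ring, fell by 0.98 with 2505 to 2862 CPM in fasted and 1201 to 1452 CPM in refed livers. Of 23 genes for branched-chain amino acid breakdown, 4 fell and none rose, against 2 without fasted library 1, 2 or 3 or refed library 2, 3 or 4. A count of 2 is near the 8.2% of all tested genes that fell. Ppm1k, the phosphatase that activates branched-chain ketoacid dehydrogenase, had 118, 123, 139 and 124 CPM in fasted and 32.7, 38.2, 21.6 and 25.8 CPM in refed livers. It fell with no overlap (−2.09, SE 0.206, adjusted p = 8.22e-06). The opposing kinase gene Bckdk showed no detectable difference (−0.02, SE 0.164, adjusted p = 0.959).

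Of 18 urea cycle and nitrogen handling genes, 5 fell and 1 rose, and 11 fell without refed library 4 and 3 with scaling by library totals. Slc7a2, a carrier of cationic amino acids, had 929, 890, 1014 and 1189 CPM in fasted and 129, 302, 124 and 574 CPM in refed livers (−1.83, SE 0.368, adjusted p = 0.0032). The amino acid transporter gene Slc38a4 fell by 0.95 and the mitochondrial glutamate carrier gene Slc25a22 by 1.48, while Glud1, glutamate dehydrogenase, rose by 0.75 (adjusted p = 0.000127). Tat, the tyrosine aminotransferase gene induced by glucocorticoids, had 1565, 1255, 1818 and 2180 CPM in fasted and 840, 741, 802 and 1554 CPM in refed livers. Refed library 4 was within the fasted range and the others below it. The difference missed the threshold (−0.79, SE 0.292, adjusted p = 0.0747, 0.0118 without refed library 4 and 0.192 without fasted library 4).

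Targets of glucocorticoids and cAMP fell in 7 of 22 cases and rose in 1 (median −0.77). Zbtb16, a transcriptional repressor, had 53.2, 10.3, 27.7 and 67.5 CPM in fasted and 1.77, 8.53, 2.32 and 1.76 CPM in refed livers. The lowest fasted value was just above the highest refed value (−3.46, SE 0.709, adjusted p = 0.00444). Klf9, a Krüppel-like factor induced by glucocorticoids, was 62.3 to 94.0 CPM in fasted and 13.1 to 32.1 CPM in refed livers (−1.85, adjusted p = 8.13e-05). Mt2, a metal-binding metallothionein, fell by 3.24. Fkbp5, a cochaperone of the glucocorticoid receptor, fell by 1.10 (adjusted p = 0.0212), but not without fasted library 4 (adjusted p = 0.0681) or refed library 4 (0.055). It passed in 4 of the 8 fits without 1 library.

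Most ER chaperone genes rose. Of 32 chaperone and unfolded protein response genes, 31 had a positive fold change, 20 rose, none fell and the median was 0.70. Without fasted library 1 or 2 or refed library 1 or 3, 11 to 13 rose, and 10 rose with the 8 control libraries alone and 13 by limma-voom. Hspa5, the ER chaperone BiP, had 483, 491, 743 and 816 CPM in fasted and 2626, 1528, 3294 and 810 CPM in refed livers. Refed library 4 lay within the fasted range and the other refed libraries above it (rise 1.71, SE 0.362, adjusted p = 0.00458). Manf, a secreted ER stress factor, had 24.9, 29.6, 43.5 and 50.7 CPM in fasted and 225, 124, 271 and 61.2 CPM in refed livers, with no overlap (2.19, SE 0.403, adjusted p = 0.00185). Sdf2l1, a BiP cofactor, rose by 2.84, Hyou1, an ER nucleotide exchange factor, by 1.86, and Syvn1, the ubiquitin ligase that clears misfolded proteins, by 1.58. The factor gene Xbp1 rose by 0.88 (SE 0.125, adjusted p = 0.000193). The calls of Pdia4, Hsp90b1, Calr and Pdia6 (adjusted p 0.0248, 0.0413, 0.0372 and 0.0247) were lost without refed library 3, at 0.0932, 0.169, 0.137 and 0.0904. These genes passed in only 3, 2, 2 and 3 of the 8 fits without 1 library. Creld2 (2.29, adjusted p = 0.0162) was lost without fasted library 1 (0.0508).

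Upstream windows of 3 members are shown, chosen after their values were seen, because they hold the ER stress response element, CCAAT followed after 9 bases by CCACG, which is the textbook site of the ATF6 and XBP1 pathway. Capitals mark the 2 ends of the element, or their reverse complements. The windows are the 250 bases before the gene's start in RefSeq, build GRCm38.p6, 5′ to 3′ on the gene's strand: Hspa5 at chr2:34771840-34772089, Creld2 at chr15:88819396-88819645 and Syvn1 at chr19:6046326-6046575, all on the plus strand. On both strands the element was in 9 of the 26 windows found for the list (34.6%), and in 18 of the 10736 windows of all tested genes (0.168%). It was in 6 of the 16 members that rose and in 3 of the 10 that did not pass. The CCAAT box alone was in 76.9% of the list's windows and in 36.4% of all.
Hspa5: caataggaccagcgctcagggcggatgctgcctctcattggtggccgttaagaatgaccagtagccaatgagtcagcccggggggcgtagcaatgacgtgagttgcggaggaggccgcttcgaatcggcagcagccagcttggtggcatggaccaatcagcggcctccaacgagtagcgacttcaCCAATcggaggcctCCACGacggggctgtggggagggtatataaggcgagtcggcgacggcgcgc
Creld2: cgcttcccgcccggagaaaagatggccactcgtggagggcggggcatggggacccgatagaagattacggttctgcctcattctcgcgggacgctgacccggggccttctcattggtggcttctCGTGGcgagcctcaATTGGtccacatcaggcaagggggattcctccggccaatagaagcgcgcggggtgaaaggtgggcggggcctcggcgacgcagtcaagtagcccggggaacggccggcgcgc
Syvn1: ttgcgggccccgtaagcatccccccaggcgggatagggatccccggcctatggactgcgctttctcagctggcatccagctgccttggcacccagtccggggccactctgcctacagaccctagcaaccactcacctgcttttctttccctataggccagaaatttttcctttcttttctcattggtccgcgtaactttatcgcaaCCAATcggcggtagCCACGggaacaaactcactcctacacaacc

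Many cytosolic heat shock protein genes rose too: 16 of 27 genes rose, none fell and the median was 0.74. Hsp90aa1, an inducible HSP90, had 190, 126, 261 and 254 CPM in fasted and 548, 407, 1126 and 386 CPM in refed livers. Every refed library was above every fasted one and library 3 was the highest (1.57, SE 0.33, adjusted p = 0.00427). The constitutive Hspa8 rose by 0.93 and the cochaperone gene Hsph1 by 1.59. The inducible Hspa1a and Hspa1b did not pass (adjusted p of 0.265 and 0.264). Dnajb1 rose by 1.2 (adjusted p = 0.0175), which was lost without refed library 3 (0.0582).

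Of 43 genes for ER translocation and N-glycosylation, 18 rose and none fell (median 0.37). This list and that of the vesicle coats were written after the fold changes were seen. Gmppb, which makes the mannose donor, rose by 1.5, Srprb, the signal recognition particle receptor subunit, by 1.31, and Sec61b, of the translocation channel, by 0.94. Of 30 genes for COPII and COPI coats, 8 rose and 2 fell, and 5 rose without refed library 3. Sec23b, a COPII coat subunit, had 23.9, 25.8, 27.4 and 29.1 CPM in fasted and 75.7, 58.6, 115 and 59.2 CPM in refed livers, with no overlap (1.54, SE 0.191, adjusted p = 6.93e-05).

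The levels of whole lists in single libraries show which changes refed library 4 shared. The median of the cholesterol list, relative to the fasted mean, was 1.22, 1.37 and 1.30 in refed libraries 1 to 3 and −0.07 in library 4. That of the ER chaperones was 0.88, 0.54 and 0.99 against −0.05, and that of lipogenesis 0.50, 0.68 and 0.27 against −0.40. For tubulins library 4 was the highest, at 1.49 against 0.85 to 1.16, and for peroxisomal oxidation the lowest, at −1.17 against −0.53 to −0.33.

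**Figure D4:**
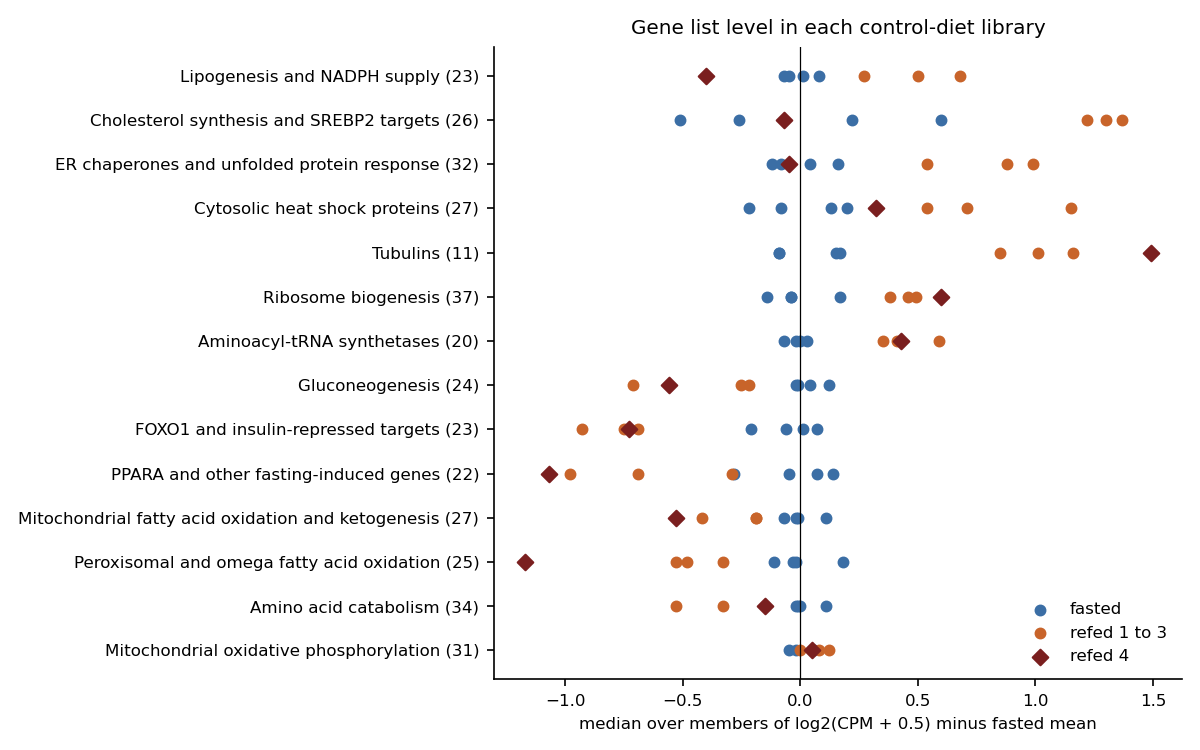
Median over the members of 14 gene lists of log2(CPM + 0.5) minus each member's fasted mean (horizontal axis) in the 8 control-diet libraries. Refed library 4 (dark diamond) lies near the fasted libraries for the cholesterol and ER chaperone lists, below them for lipogenesis, where refed libraries 1 to 3 are above them, and on the refed side of the fasted libraries for tubulins, ribosome biogenesis, gluconeogenesis and fatty acid oxidation.

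Genes of protein synthesis rose in part, among them aminoacyl-tRNA synthetases, ribosome biogenesis factors and mitochondrial ribosomal proteins. The lists of mitochondrial and cytosolic ribosomal proteins and of RNA polymerases I and III were written after the fold changes were seen. Of 37 ribosome biogenesis genes, 16 rose, none fell and the median was 0.50. Nop56, of the box C/D particles that methylate ribosomal RNA, had 22.3, 18.0, 29.8 and 22.9 CPM in fasted and 40.8, 52.6, 59.7 and 64.2 CPM in refed livers. The states did not overlap (1.23, SE 0.17, adjusted p = 0.000164). Rrp12 and Utp20, factors of ribosome assembly, rose by 1.14 and 0.98. Of 77 mitochondrial ribosomal protein genes 28 rose and none fell (17 without fasted library 1 or with the 8 control libraries alone), led by Mrpl19 at 0.94 (adjusted p = 3.85e-05). Of 80 cytosolic ribosomal protein genes 1 rose (Rpl7l1, 0.50) and none fell, and 6 rose with scaling by library totals. Of 20 aminoacyl-tRNA synthetase genes, 12 rose and none fell (median 0.45), among them Cars at 1.19 and Yars at 0.95. Of 26 RNA polymerase I and III genes 3 rose and 1 fell. Beside the 8.91% and 8.2% of all tested genes that rose and fell, these counts are no result about the list. The polymerase III repressor gene Maf1, which fell, had 16.5, 16.2, 16.0 and 16.0 CPM in fasted and 9.61, 10.7, 6.35 and 8.73 CPM in refed livers (−0.87, SE 0.177, adjusted p = 0.00296).

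Of 34 translation factor genes 8 rose and 3 fell, and the latter include Eif4ebp2, a repressor of cap-dependent translation, at −0.64 and Eif4b, a helicase cofactor, at −0.65. Without fasted library 1 or refed library 3, 5 rose, and 13 with scaling by library totals. The count of translation factors that fell is near the 8.2% of all tested genes that fell. Nucleotide synthesis genes, a list written after the fold changes were seen, rose in 11 of 28 cases and fell in none. Without fasted library 1 or 2 or refed library 3, 6 rose. Cad, which starts pyrimidine synthesis, had 4.02, 3.72, 4.01 and 6.41 CPM in fasted and 16.1, 10.2, 16.0 and 13.2 CPM in refed livers (1.61, SE 0.231, adjusted p = 0.000217). Umps and Ctps, of the same pathway, rose by 1.07 and 1.43, and Ampd2, an AMP deaminase gene, by 1.21. Of 34 constitutive proteasome genes 7 rose and none fell (median 0.23), and 3 rose without fasted library 2 or 4 or refed library 3, 4 without fasted library 1, 2 with the 8 control libraries alone, 11 by DESeq2 and 14 with scaling by library totals. No gene of the 31 for oxidative phosphorylation passed, and their median was 0.05.

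Tubulins had the highest list median, 1.15, with 7 of 11 tested genes higher and all 11 positive. The tubulin list was written after the fold changes were seen, so its rank among the lists is no result. Tuba1c had 62.2, 51.4, 41.9 and 58.5 CPM in fasted and 235, 180, 200 and 171 CPM in refed livers. The states were far apart (1.88, SE 0.155, adjusted p = 2.13e-06). Tubb5 rose by 1.54 (adjusted p = 4.67e-06) and Tubb2a by 1.85. Of 27 genes for actins and actin monomer binding, a list also written after the fold changes were seen, 4 rose and 23 did not pass (median 0.17). The actin genes Actg1 and Actb rose by 2.50 and 1.56. Actg1 had 144, 116, 113 and 154 CPM in fasted and 680, 612, 626 and 1063 CPM in refed livers (SE 0.226, adjusted p = 4.2e-06), and library 4 was the highest. Tubulin and actin genes have close paralogs and processed pseudogenes, so reads may be shared among them.

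Of 23 cell cycle and replication genes, 7 rose and 2 fell (median 0.61), and 1 fell without fasted library 2. The count that fell is near the 8.2% of all tested genes that fell. The cyclin gene Ccnd1, which drives the start of the cycle, had 10.7, 11.4, 17.5 and 10.9 CPM in fasted and 29.9, 34.7, 28.8 and 60.6 CPM in refed livers (1.61, SE 0.286, adjusted p = 0.00127). The helicase genes Mcm5 and Mcm2 rose by 1.48 and 1.29 from levels near 1 CPM. E2f8, a transcriptional repressor of the cycle, fell by 1.38. Birc5, of the mitotic passenger complex, fell by 1.2 (adjusted p = 0.0234) and lost its call without fasted library 2 (0.113).

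Genes of the amino acid response through ATF4 rose in 12 of 30 cases and none fell (median 0.48), with 6 higher without fasted library 2 or refed library 3 and 7 without fasted library 4. The risers of smallest p in this list, Wars, Cars, Nars and Aars, encode tRNA synthetases. At least Cars of these is also among the synthetase genes counted above, so the counts overlap and are not separate results. Atf4 itself had 69.7, 50.1, 69.6 and 65.9 CPM in fasted and 117, 95.4, 109 and 100 CPM in refed livers, with no overlap (0.73, SE 0.158, adjusted p = 0.00468). Asns, asparagine synthetase, and Trib3, a pseudokinase induced by ER stress, did not pass (1.53 and −1.0, adjusted p of 0.131 and 0.267), and Asns passed without refed library 1 (0.0292). Without refed library 4 the Asns difference was 0.62 (adjusted p = 0.496). The serine and folate enzymes Psat1 and Mthfd2 rose by 2.43 and 2.33 (adjusted p of 0.0419 and 0.0214), and were lost without refed library 4 (0.135) and refed library 3 (0.0641). Ddit3, which encodes CHOP, rose by 1.23 (adjusted p = 0.034), lost without refed library 3 (0.115). Psat1 passed in 3, Mthfd2 in 4 and Ddit3 in 3 of the 8 fits without 1 library.

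Clock genes were higher in 4 of 20 cases and lower in 2. When 1 library was left out 2 to 5 were lower, the most without refed library 4. The count of 2 is near the 8.2% of all tested genes that fell. Per2 had 19.1, 26.2, 16.9 and 22.3 CPM in fasted and 70.7, 75.6, 85.3 and 38.0 CPM in refed livers (1.67, SE 0.251, adjusted p = 0.000304). Cry1, its repressor partner, rose by 1.69 and Bhlhe40, another repressor of the loop, by 1.19. Nr1d1, which encodes REV-ERBα, had 89.0, 53.6, 63.1 and 86.9 CPM in fasted and 29.8, 19.3, 16.1 and 25.7 CPM in refed livers (−1.69, SE 0.251, adjusted p = 0.000287), and Nr1d2 fell by 0.67. The hour at which livers were collected is not in the labels used here.

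Autophagy and lysosome genes fell in 10 of 36 cases and 1 rose, with 6 lower without refed library 3, with scaling by library totals or with the 8 control libraries alone. Wipi1, an early autophagosome protein, had 13.2, 16.2, 15.3 and 16.4 CPM in fasted and 7.24, 7.79, 6.03 and 3.82 CPM in refed livers (−1.30, SE 0.188, adjusted p = 0.000219). Map1lc3b, which coats autophagosomes, fell by 0.82 and the mitophagy receptor gene Bnip3l by 0.77. The initiating kinase gene Ulk1 fell by 0.68 (adjusted p = 0.0399), lost without fasted library 4 (0.117). It passed in only 2 of the 8 fits without 1 library.

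In bile acid synthesis and transport 6 of 25 genes fell and 3 rose. None rose without fasted library 1, and 1 rose without fasted library 4, refed library 2 or refed library 3. Without fasted library 1 or 2 or refed library 3, 3 fell, and 2 fell with scaling by library totals. Cyp8b1, the sterol 12-hydroxylase gene, had 1078, 855, 1236 and 1224 CPM in fasted and 710, 656, 430 and 207 CPM in refed livers (−1.13, SE 0.277, adjusted p = 0.0103). Cyp7a1, the rate-limiting enzyme of bile acid synthesis, did not pass (0.56, adjusted p = 0.354). The transporter genes Abcg5 and Abcg8, whose paired products export sterol to bile, fell by 0.91 and 1.33. Of 31 apolipoprotein and lipoprotein genes 3 rose and 4 fell, counting Angptl8, Abcg5, Abcg8 and Angptl4, which are described above; over all tested genes 8.91% rose and 8.2% fell, so both counts are near the background. Of 18 growth hormone and IGF1 genes, Igfbp1 alone fell (3 fell without refed library 4), and Igf1 did not pass (−0.26, adjusted p = 0.34). Beside the 8.2% of all tested genes that fell, this count is no result about the list. No major urinary protein gene of 20 passed.

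Smaller counts were seen in other lists. Interferon-stimulated genes rose in 5 of 28 cases (2 or 3 without any one of fasted libraries 1 to 3 or refed libraries 1 to 3), among them Oasl1 at 0.93. NRF2 targets rose in 5 of 20 (2 without fasted library 4, and 3 without fasted library 1 or 3 or refed library 1). Of 25 cytochrome P450 genes of families 1 to 3, 2 rose and 3 fell, counting the rise of Cyp2u1 at 1.53, and 1 fell without fasted library 1 or 2 or refed library 3 or 4. Of 22 acute phase genes 1 rose and 2 fell; none fell without fasted library 2, without refed library 3 or with scaling by library totals. Beside the 8.91% and 8.2% of all tested genes that rose and fell, the cytochrome P450 and acute phase counts are no result about these lists.

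Beyond the lists, the rule for the largest changes named 12 higher and 12 lower genes with separated states and a mean of at least 1 CPM. Those higher and not yet described included Hapln1, a hyaluronan linker, at 4.93, Atp2b2, a plasma membrane calcium pump, at 3.47, Cyp26a1, which degrades retinoic acid, at 3.29, Ihh, the Indian hedgehog ligand, at 2.78, Nrep at 2.74, Slc22a27 at 2.63 and Nat8f6 at 2.61. Hapln1 had 0, 0.03, 0.10 and 0.13 CPM in fasted and 0.28, 0.87, 1.68 and 5.73 CPM in refed livers. Refed library 4 was the highest for Hapln1, and the rise was 3.72 without it. Mean fasted levels of Atp2b2, Ihh, Slc22a27 and Nat8f6 were also under 1 CPM. Cyp26a1 had 1.14, 2.42, 1.66 and 0.706 CPM in fasted and 10.1, 25.8, 11.5 and 10.7 CPM in refed livers, with refed library 2 the highest. Nrep had 7.14, 7.13, 9.67 and 7.57 CPM in fasted and 33.7, 84.0, 52.6 and 40.6 CPM in refed livers. The lower genes were Zbed5 at −2.96, Gtpbp4-ps1, a pseudogene whose reads may be shared with its parent, at −2.94, Rfx4 at −2.86, Gpcpd1, a glycerophosphocholine phosphodiesterase, at −2.82, Sco2, a copper chaperone of cytochrome oxidase, at −2.73, Slc25a34 at −2.63 and Rnf125, a ubiquitin ligase, at −2.49. Gpcpd1 had 234, 205, 493 and 453 CPM in fasted and 21.4, 67.5, 48.5 and 58.6 CPM in refed livers (SE 0.369, adjusted p = 0.000155). The smallest p-values belonged to Rab30, a Golgi GTPase, and Brap, a regulator of Ras signalling, named after their values were seen. Rab30 had 40.0, 26.4, 39.1 and 40.6 CPM in fasted and 6.88, 5.64, 6.27 and 8.06 CPM in refed livers (−2.44, SE 0.162, adjusted p = 2.79e-07). Brap fell by 1.61 (SE 0.108, adjusted p = 2.79e-07).

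The same contrast on the low isoleucine diet, in other mice, gave 1433 higher (9.6%) and 1761 lower genes (11.8%). Of the 2552 genes that passed on the control diet, 782 of the higher and 906 of the lower also passed in the same direction on the low isoleucine diet. A single gene, Fmr1nb, named after its values were seen, passed in opposite directions at levels near 1 CPM (5.13 on the control and −2.74 on the low isoleucine diet). The test of the difference between the diets called 0 genes (0%) by edgeR, with 928 genes at an unadjusted p under 0.05, and 36 by DESeq2. Igfbp1 differed by −4.22 on the control and −1.28 on the low isoleucine diet. Hence no response is called particular to the control diet. On the control and the low isoleucine diet the fold changes were 2.58 and 2.44 for Fasn, −1.99 and −1.86 for Pck1, −3.00 and −3.62 for Angptl4, and 2.50 and 2.44 for Actg1. Tubb2a differed by 1.85 and 0.16, and Hsp90aa1 by 1.57 and 0.65. The edgeR test of the difference between the diets called neither of these genes.

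**Figure D5:**
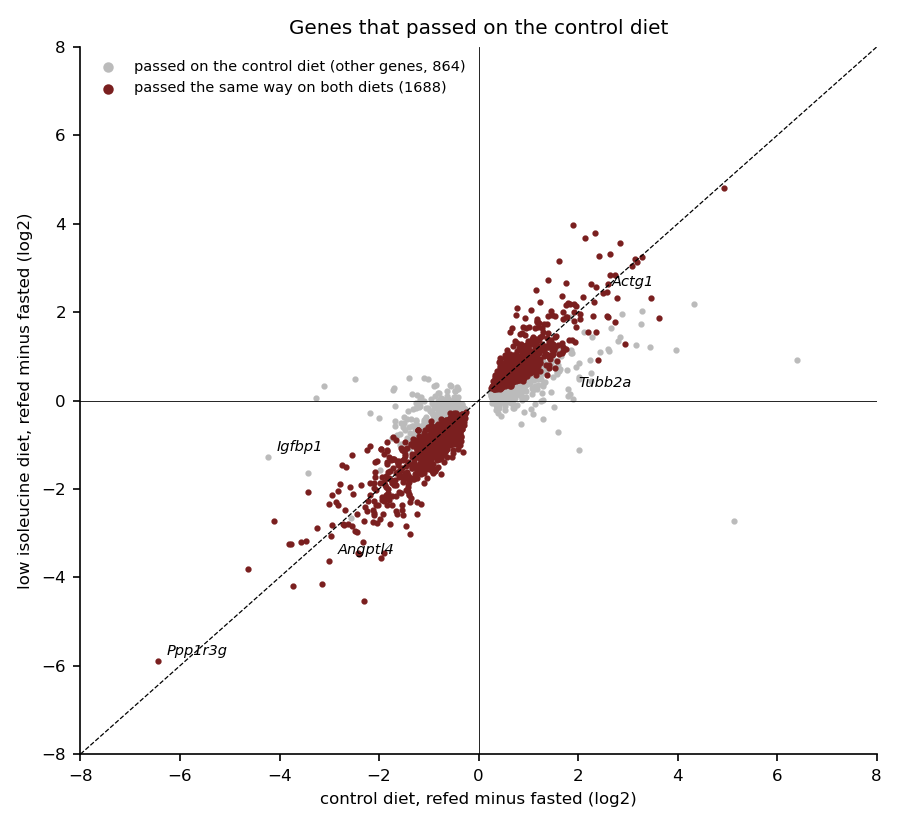
Log2 fold change, refed minus fasted, on the control diet (horizontal axis) and on the low isoleucine diet (vertical axis) for the 2552 genes that passed on the control diet; the dashed line marks equal values. Dark points are the 1688 genes that also passed in the same direction on the low isoleucine diet, and 1 gene lies in the lower right corner with opposite calls.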

How the data were processed

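Poly(A)-selected, stranded RNA-seq libraries of mouse liver were sequenced and the lanes of each library merged before expression was estimated, per the labels' protocols. The authors deposited 1 table of RSEM expected counts for 51912 genes, per the file headers, in which 10.215% of the values were not whole; the aligner and build: not given in the sources used here. Per the submitters' processing notes, R 3.5.3, limma and edgeR were used by the authors. Expected counts were rounded, genes kept by edgeR's expression filter (minimum count 10, minimum total 15), and libraries scaled by TMM. A quasi-likelihood fit in edgeR 4.0.16 (R 4.3.3) used all 16 libraries with 1 mean per group and robust estimates of the spread, and p-values were adjusted over the 14920 genes by the Benjamini-Hochberg method at 0.05. DESeq2 1.42.0, limma-voom (limma 3.58.1), other scalings, filters and samples were alternatives. The fit was tested on simulated data with known fold changes. Gene lists were matched by symbol (1020 of 1025 symbols). The comparison, lists and named genes were chosen with earlier results of these data known, and 8 of the 52 lists (tubulins, actins, ER translocation, vesicle coats, nucleotide synthesis, cytosolic and mitochondrial ribosomal proteins, RNA polymerases I and III) were written after the fold changes were seen. Genes were named by 3 rules: 24 textbook genes of fasting and feeding, the 12 largest changes in each direction, and up to 4 members of each list by smallest p, with others named from the lists for their role. The labels do not say that each library is a separate mouse, so p-values measure the spread between these samples. At 24368656 to 33432158 counts per library, a count of 10 is well under 1 CPM, and counting error matters mainly for genes below that level. Upstream sequences came from a RefSeq promoter table. Some genes of these lists are counted but not reported here by name.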

Additional observations from a re-analysis of the deposited data

Results flagged for a closer look

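For described genes, summed marker levels and library totals, a value was singled out where its gap to the nearest of the other 3 libraries of its state was a larger share of the state's range than Dixon's critical value allows for 4 values. Chance alone does this in about 1 in 20 groups, and 20 of 370 groups were singled out, 6 of them through refed library 4. In that library Fdps stood at 49.91 CPM (others 197.2 to 214.7), Tat at 1554 (741.3 to 840.1), Tuba8 at 17.51 (2.956 to 5.03), Actg1 at 1063 (611.5 to 680.5), Actb at 697.9 (468.3 to 498.9) and the summed stellate cell and fibroblast markers at 743.1 (323.4 to 380.5). In refed library 2, Tdo2 was at 1201 CPM (1423 to 1452), Zbtb16 at 8.532 (1.761 to 2.315), E2f8 at 4.4 (2.134 to 2.355) and Cyp26a1 at 25.83 (10.05 to 11.54). In refed library 3, Elovl5 was at 308.3 CPM (419.2 to 437.3), Hspa1a at 2.595 (0.2481 to 0.6033) and Cyp2c70 at 349 (63.38 to 109.6). The rise of Cyp2c70 (1.72, adjusted p = 0.0484 by edgeR) was lost without that library (0.84, adjusted p = 0.233). It passed in 3 of the 8 fits without 1 library.

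Among fasted livers, library 3 had Igfbp1 at 241.8 CPM (44.63 to 57.5), Irs2 at 34.6 (18.63 to 19.18) and Ccnd1 at 17.47 (10.73 to 11.43). Library 1 had Cyp4a14 at 9111 CPM (7235 to 7312), and the fall of this gene (−0.51, adjusted p = 0.0262 by edgeR) was lost without it (−0.43, adjusted p = 0.0947). Library 2 had Acly at 97.66 CPM (73.67 to 75.42) and Rab30 at 26.41 (39.13 to 40.57), and library 4 had Cad at 6.414 (3.719 to 4.016).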

How the results depend on the processing

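Of the 173 genes followed through the 19 alternatives, 154 were called, and 117 of these passed under all of them. No called gene changed sign. Fgf21 and Bckdk, which were not called, did: Fgf21 went from 0.17 to −0.61 without refed library 1 and to −0.18 by limma-voom, and Bckdk ranged from −0.18 to 0.09 when 1 library was left out. Leaving out 1 library gave 1817 to 2743 called genes, with 874 to 1370 higher and 912 to 1373 lower; the fewest higher genes came without refed library 3. Scaling by library totals alone left 747 lower genes on the control and 1153 on the low isoleucine diet. A test against a fold of 1.2 called 1216 genes (575 higher, 641 lower) on the control diet and 1704 (716 higher, 988 lower) on the low isoleucine diet. Using the 8 control libraries alone gave 826 higher genes. DESeq2 called 36 genes for the difference between diets (20 higher, 16 lower on the control diet). With the label mark as a replicate block 2301 genes passed, 1157 higher and 1144 lower. Each gene's mean over its state was also subtracted from its log2 levels in the control libraries. The remaining deviations of the fasted and refed libraries of the same mark correlated at 0.149, 0.133, 0.307 and −0.201. For 3 of the 4 marks the fasted library correlated best with the refed library of its own mark. As 1 of the 4 correlations was negative and no label says what the marks stand for, the marks were not used to pair libraries. The causes of these shifts were not tested, except that a fold threshold leaves fewer calls by construction. Other fits without 1 library gave fewer calls than with all, but the fit without refed library 4 gave the most, 2743.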
